A study of Danio rerio with 6 samples.

Results

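The 300 strongest open chromatin regions of control zebrafish blood were taken from the peak lists of 3 control libraries. Overlapping control peaks were merged when they shared at least 1 bp, which gave 136652 regions, and the 16509 regions with a peak in all 3 lists were kept. Each library ranked the kept regions by the highest peak score in the region, and the 300 regions with the best mean rank are the members described here. The members were thus chosen by the control scores, and their control values are given as a description without a test.

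ATAC-seq uses a transposase that cuts accessible DNA and attaches sequencing adapters in the same step, so open promoters and enhancers appear as piles of aligned reads. Most blood cells of a fish are erythrocytes, which in fish keep their nucleus, and the open regions of whole blood are therefore mostly those of red cells and their precursors. Piles of reads also form where many copies of a repeat share few places in an assembly, because reads from all copies then align to the copies that the assembly holds.

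AB zebrafish were kept in larval medium with DMSO (control) or with 1 µM cortisol for the first 5 days of development and then raised normally, so the adults were not in cortisol when sampled. Each group has 3 libraries from adult blood, and both libraries of a replicate number come from siblings of the same age. The replicate 1 fish were 12 months old, those of replicate 2 were 11 and those of replicate 3 were 10. The study's methods describe blood pooled from 6 fish of mixed sex for each library, whereas the series' own design text speaks of individual fish, so whether a replicate is a pool or a fish is not settled.

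The height of a peak is given here as fold over background, the reads stacked at its summit divided by the uniform background that the peak caller used for that list. Both were estimated from the peak scores and not counted from reads. The background differed between libraries. It was 9.07 and 9.04 reads in control replicates 1 and 2, 3.38 in control replicate 3, 5.72 and 6.55 in cortisol-treated replicates 1 and 2, and 1.98 in cortisol-treated replicate 3. The replicate 3 libraries stand apart in both groups. Over the 14022 kept regions with a peak in all 6 libraries the median fold was 22.5 in control replicate 3 against 7.17 and 6.87 in the other controls, and 30.7 in cortisol-treated replicate 3 against 14.2 and 18.5 in the other treated libraries. Age, depth and signal over background cannot be told apart in these libraries, since each age has 1 library per group. A digit in the peak names that otherwise separates the control lists from the treated lists is the other way round in replicate 1, and comparisons between the groups are also given without both replicate 1 libraries. Values of single regions, medians of each library and the ranking that chose the members follow the labels as they stand.

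The members fell into 2 sets by how far control replicate 3 stood from the other controls. The ratio of the fold in control replicate 3 to the geometric mean of the folds in control replicates 1 and 2 was at most 1.28 in 83 members and at least 1.98 in the other 217, and a single ratio lay between 1.5 and 2. The 83 are called even members and the 217 uneven members, a split placed at 1.5 after the values were seen. The median ratio was 0.947 in even members, 4.25 in uneven members and 3.14 over all 16509 kept regions, so the uneven members followed the typical region and the even members departed from it. Among all kept regions 19.4% were even by the same split, against 27.7% of members.

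**Figure D1:**
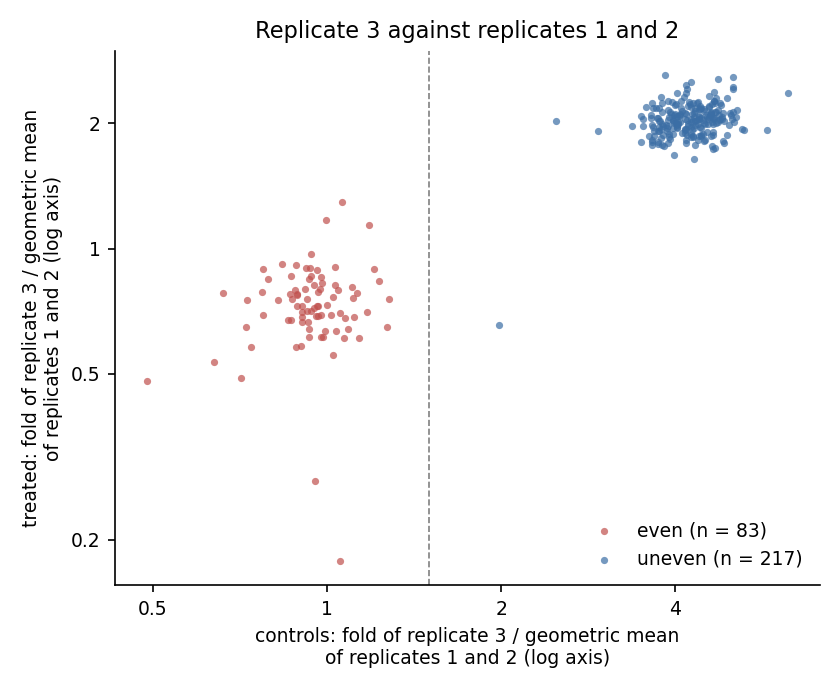
Each point is a member. The x axis gives the fold over background in control replicate 3 divided by the geometric mean of control replicates 1 and 2, the y axis the same ratio in the cortisol-treated libraries, both on log axes, and the dashed line marks the split at 1.5. The 83 even members sit around 0.947 on the x axis and the 217 uneven members around 4.25, and the region near *sox9b* at 1.98 is the point closest to the line on its right.

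The treated libraries, which chose no member, separated the same sets. In uneven members the median ratio of cortisol-treated replicate 3 to the geometric mean of treated replicates 1 and 2 was 2.04, and replicate 3 was the highest of the treated libraries in 216 of 217. The median was 1.96 over all kept regions with a peak in each treated list, so the uneven members again followed the typical region. In even members the median ratio was 0.729, and replicate 3 was the lowest of the treated libraries in 75 of 83. The treated ratios ran from 0.178 to 1.29 in even members and from 0.657 to 2.61 in uneven members, and this overlap came from the region near *sox9b*, the only uneven member in which treated replicate 3 was not the highest. The 0.178 belonged to chr8:34867978-34879651, next to the region near *hpdb*, with folds of 791, 705 and 133 in treated fish. In treated replicates 1 and 2 both regions carry the same score, since a treated peak that reaches both counts for each. That lowest ratio is thus not a separate measurement.

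The split itself sets most of the spread among the controls, which had a median SD of 0.14 on the log2 scale in even members and 1.22 in uneven members. Among the treated libraries, which did not enter the split, the median SDs were 0.31 and 0.60. The median folds of the even members were 239, 209 and 201 in control replicates 1, 2 and 3, and 241, 233 and 165 in treated replicates 1, 2 and 3. The median folds of the uneven members were 47.9, 40.2 and 183 in the controls and 128, 134 and 264 in the treated libraries. The uneven members were lower than the even ones in control replicates 1 and 2, whereas in control replicate 3 the medians were close to each other.

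**Figure D2:**
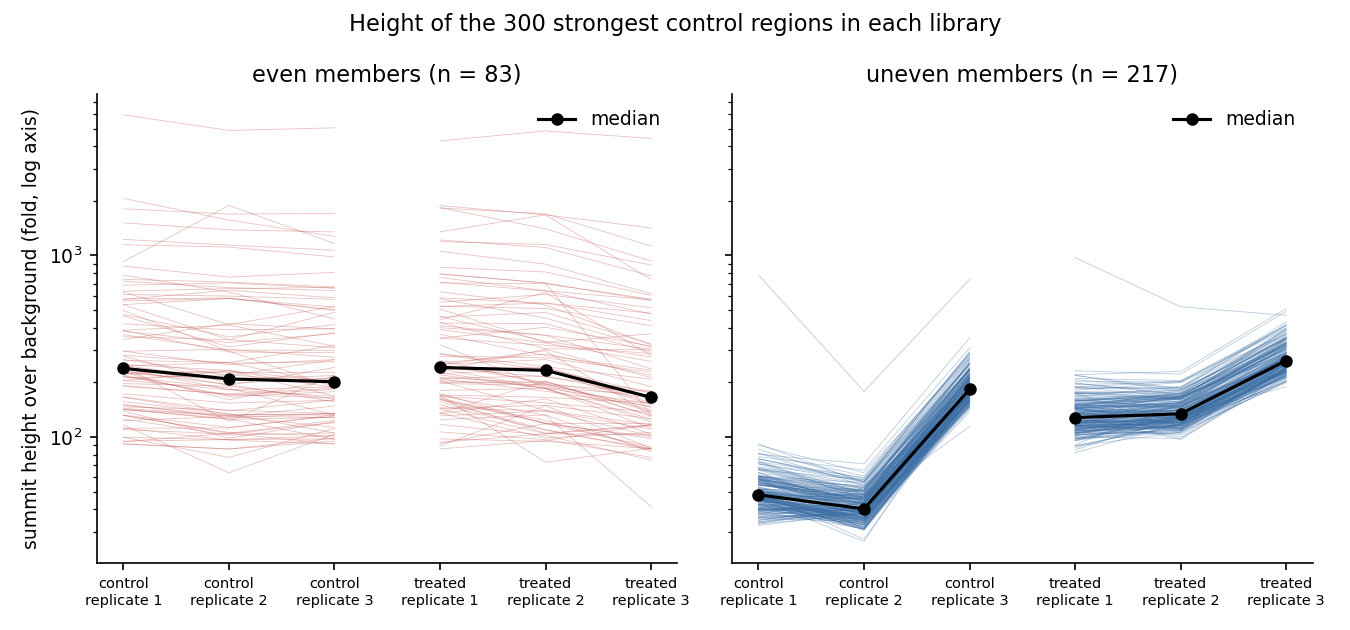
Summit height over background on a log axis in each of the 6 libraries for the 83 even members (left) and the 217 uneven members (right). Thin lines are single members, joined within a group, and black points are medians. The medians of even members stay between 165 and 241, whereas those of uneven members run from 40.2 in control replicate 2 to 264 in cortisol-treated replicate 3.

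The even members held the top of the list. They were 47 of the first 48 places and 58 of the first 100, and the remaining 25 were spread over places 101 to 300. The strongest region of all was chr24:1-1203 in GRCz10 coordinates, the first 1203 bp of the assembled chromosome, which ranked 1 in all 6 libraries. Its fold was 5956, 4885 and 5050 in control replicates 1, 2 and 3 and 4278, 4857 and 4410 in the treated libraries, and the treated values lay below the controls without overlap. Second was chr20:4437522-4438205, a region of 684 bp with folds of 1808, 1692 and 1703 in controls and 1885, 1674 and 1417 in treated fish, where the groups overlapped.

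No gene was named for any of the 5 strongest regions. The region chr17:53292449-53293034, 586 bp wide, had folds of 2062, 1567 and 1274 in controls and 1350, 1675 and 736 in treated fish. A region of 2412 bp at the start of an unplaced scaffold had 1512, 1385 and 1348 in controls and 1826, 1697 and 1128 in treated fish. A region of 2811 bp at the start of another unplaced scaffold had 925, 1886 and 1165 in controls and 1837, 1402 and 933 in treated fish. In each of these the range of the treated libraries overlapped that of the controls, and these 5 regions also had the 5 best mean ranks in the treated libraries.

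Places 6 to 20 were even members as well. The authors' annotated table assigns a nearest gene to regions. It holds only the regions that their comparison of pooled libraries listed as higher in treated fish than in controls. A member without a row is one not listed there and may still lie close to a gene. Where rows overlapped these places, the start of the named gene was far from the row: *stoml2* at 59308 bp, *cdkn2aip* at 68885 bp, *mir2185-2* at 152580 bp, *hpdb* at 53082 bp, the olfactory receptor gene *or129-1* at 10108 bp, *zgc:63694* at 52291 and 46493 bp for its 2 members, *fmr1* at -59132 bp, where a minus sign means upstream of the start, *zgc:158420* at 159740 bp and *znf1041* at 146810 bp. The region of *capn3a*, which encodes a calpain protease, was labelled as an intron at 24070 bp from the start of the gene. The regions chr11:44179267-44179615, chr2:56358300-56358896, chr2:19779886-19781468 and chr11:203952-204292, at places 13, 14, 17 and 19, had no row.

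Several of these regions were very stable between libraries. The region near *mir2185-2*, chr17:39980959-39992688, ranked 8 in every library, with folds of 874, 760 and 807 in controls and 1054, 896 and 615 in treated fish. The region near *stoml2*, chr10:16825736-16854984, had folds of 1226, 1140 and 1069 in controls and 1216, 1106 and 771 in treated fish. The region near *cdkn2aip*, chr7:52739472-52768461, had 1146, 1113 and 982 in controls and 1192, 1149 and 887 in treated fish. In all 3 the groups overlapped, and cortisol-treated replicate 3 was the lowest library.

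Members of both sets were wider than the other kept regions, the even set by far the most. The median width was 1001 bp in members, against 559 bp in the kept regions outside the 300 and 566 bp over all kept regions. It was 5575 bp in even members and 875 bp in uneven members, and 29 even members but no uneven member reached 10 kb. The even members covered 741 kb in all and the uneven members 218 kb. The widest was the *capn3a* region, chr17:45193002-45248044, at 55043 bp, with 93 summits in control replicate 1 and folds of 561, 579 and 501 in controls and 525, 510 and 410 in treated fish. The next widest were the regions near *hpdb* at 32089 bp, chr21:25802174-25833651 at 31478 bp, the region near *stoml2* at 29249 bp and that near *cdkn2aip* at 28990 bp, all even.

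**Figure D3:**
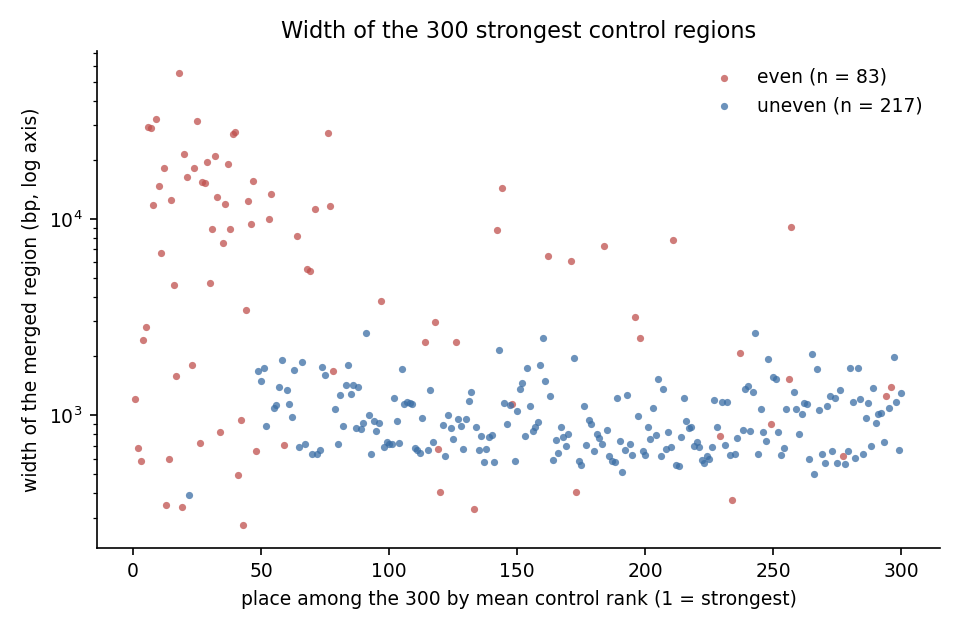
Width of each member in bp on a log axis against its place among the 300, where place 1 is the strongest in controls. Even members reach 55043 bp and crowd the first 48 places, and uneven members lie around their median of 875 bp from place 49 on, apart from the region near *sox9b* at place 22.

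Within the *capn3a* region and its like, the merged interval was mostly a single peak of the caller, since the widest single peak of a region had a median width of 5562 bp in even members. An even member held a median of 8 summits in control replicate 1, against 1 in uneven members and 1 over all kept regions.

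Even members also clustered along the genome. Members within 10 kb of each other formed 19 groups of at least 2 regions with 47 members, and 6 of these held 3 or more members, 21 in all, every one even. The groups of 4 were chr2:19772465-19792373, with 3 regions without a row and 1 near *pimr141*, and chr4:28567007-28616588, with 1 region near *znf1041*, and another lay on an unplaced scaffold. The groups of 3 were chr10:16825736-16886605, near *stoml2*, and chr14:19787937-19817421, near *fmr1*, and another on a further unplaced scaffold. In the group near *stoml2* the members covered 57.5 of 60.9 kb. Members of such a group are close neighbours and are not taken as separate observations. Whether a group is 1 open stretch was not tested.

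Members lay on all 25 chromosomes. Chromosome 8 held 24, chromosomes 3 and 16 held 19 each, and chromosomes 22 and 25 held 4 each, which is 3.36% of the kept regions of chromosome 8 and 0.756% and 0.875% of those of chromosomes 22 and 25. Unplaced scaffolds held 16 members, 13 of them even, or 5.33% of members against 2.24% of all kept regions. Chromosome 4 held 11 members, of which 7 were even, and chromosomes 1, 6, 9, 12, 18 and 19 held no even member.

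Of the 300 members, 243 overlapped a row of the annotated table and 57 (19%) did not, whereas 47.7% of all kept regions had no row. All 57 members without a row were even, and all 217 uneven members had one. The 57 had a median width of 2472 bp and median folds of 205, 173 and 167 in control replicates 1, 2 and 3 and of 204, 186 and 133 in treated replicates 1, 2 and 3. The 26 even members with a row were wider, at a median of 12418.5 bp, and higher, with 478, 403 and 440 in controls and 516, 436 and 317 in treated fish. A row marks a stretch that the authors listed as higher in treated fish, often narrower than the member. The link between rows and the 2 sets, and each share among regions with a gene, thus carries that comparison with it. The ratio of treated to control folds was above 1 in 22, 20 and 1 of the 26 in replicates 1, 2 and 3. The share without a row was 34% among the best 100 regions and 11.4% among the best 1000. A genome of the files' build was not used here, so the repeat content of the members was not tested. The reads were cut to 30 bp and kept with up to 3 alignments and 2 mismatches, and the part this had in the even members was not tested.

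The rows named a nearest gene for 237 members, 226 symbols in all. Of these members 120 (50.6%) were labelled as promoters, against 50.1% of all kept regions with a gene, so membership did not go with the promoter label. The sets differed instead. The label was on 120 of 214 uneven members (56.1%) and on none of 23 even members, of which 22 were over 10 kb from the start of the named gene. The 120 promoter rows were centred at a median of -107 bp from the annotated start, with quartiles of -166 and -71.8 bp, and 109 of them were upstream. Among the other members with a gene, 88 were intergenic, 21 intronic, 5 at a transcript end, 2 in a 5′ UTR and 1 in an exon.

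The strongest uneven member, described here after its values were seen, was the region of 391 bp at chr3:62288851-62289241, 59387 bp from *sox9b*, at place 22. Its folds were 780, 178 and 739 in controls and 973, 521 and 468 in treated fish, so it lacked the pattern of the other uneven members and control replicate 2 alone was low. From place 49 the uneven members began with the transcript end of *mir7a-3*, a microRNA gene, and the promoter of *chac1*, whose product degrades glutathione. The *chac1* promoter, chr20:28367317-28368814, had folds of 77.8, 65.6 and 309 in controls and 232, 222 and 492 in treated fish. The promoter of *stat3*, the transcription factor downstream of interleukin-6 family receptors in mammals, followed at place 52, with 81.5, 61.1 and 285 in controls and 201, 202 and 407 in treated fish. In both promoters control replicate 3 exceeded treated replicates 1 and 2, so the groups overlapped, and each treated library was above the control of the same number.

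Genes that respond to glucocorticoids in vertebrates had 7 members among their 50 kept regions (14%), against 2.78% of all kept regions with a gene. This list of 29 genes and the others below were drawn up from textbook roles, with earlier results of these data known. The study itself names the promoters of *txnipa*, *sgk1*, *fkbp5*, *klf11a*, *glcci1* and *klf9* among its top peaks in treated fish from these libraries. The list is thus not independent of these data, and a share here is a description of the list. Most other top peaks of the study, such as those at *chac1*, *stat3* and *mir7a-3*, are members too. The overlap with its top peaks is thus not particular to this list. The strongest was the promoter of *txnipa*, at place 58, a homologue of the mammalian inhibitor of thioredoxin and of glucose uptake, with folds of 75.6, 59.2 and 277 in controls and 184, 188 and 430 in treated fish. The promoter of *sgk1*, the serum- and glucocorticoid-regulated kinase, at place 61, had 71.2, 58.2 and 267 in controls and 181, 199 and 367 in treated fish. The promoter of *fkbp5*, a co-chaperone that lowers the affinity of the glucocorticoid receptor for its ligand, at place 90, had 73.7, 45.0 and 210 in controls and 151, 166 and 355 in treated fish. In these 3 promoters the controls of replicates 1 and 2 were the lowest of all 6 libraries, treated replicate 3 was the highest, and the groups overlapped through control replicate 3.

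The other members of this list showed the same order. They were an intronic region of *foxo3b*, a forkhead factor of stress and starvation responses, with 58.6, 47.3 and 219 in controls and 158, 157 and 323 in treated fish, and the promoter of *klf11a*, a Kruppel-like factor, with 58.6, 44.8 and 224 in controls and 162, 161 and 322 in treated fish. The promoter of *glcci1*, named for its induction by glucocorticoids in mammalian thymus cells, had 53.1, 40.2 and 210 in controls and 158, 164 and 320 in treated fish. The promoter of *per1b*, a repressor of the circadian clock, was the lowest at place 276, with 34.7, 41.3 and 158 in controls and 87.0, 125 and 246 in treated fish. The *klf9* promoter lay outside the members at place 352, and the receptor genes *nr3c2* and *nr3c1* at places 1498 and 2163. Of the 29 listed genes 20 had a kept region with a row, and the median place of the 50 kept regions was 3453.5. Best regions of other listed genes lay from place 891 (*dusp1*) and 1087 (*tsc22d3*) down to 9482 (*klf15*).

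Erythroid genes had 4 members among 106 kept regions (3.77%), although 36 of the 52 genes on the list had a kept region with a row. They were the promoter of *bnip3lb*, whose mammalian homologue clears mitochondria from maturing red cells, at place 81, *foxo3b*, the promoter of *mir144*, which shares its region with *mir451a* and is transcribed with it in red cells, at place 159, and the promoter of *blvrb*, biliverdin reductase B, at place 210. The *bnip3lb* promoter had folds of 72.7, 48.3 and 216 in controls and 198, 170 and 330 in treated fish. The *mir144* promoter, chr5:41670979-41672780, had 47.4, 40.5 and 216 in controls and 133, 158 and 334 in treated fish. The *blvrb* promoter had 47.3, 35.0 and 169 in controls and 126, 119 and 223 in treated fish. The genes that define red cells lay lower, with the best region of *slc4a1a*, the band 3 anion exchanger, at place 401, that of *alas2*, the first enzyme of erythroid heme synthesis, at place 764, that of *hbaa1*, an alpha globin, at place 796 and that of *gata1a*, the erythroid master regulator, at place 3212.

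Markers of other blood cells had too few kept regions for a share to be read against 2.78%. The myeloid list had 0 members among 4 kept regions, the lymphoid list 0 among 3 and the thrombocyte list 0 among 4. A kept region with a row was found for 3 of 18 myeloid, 2 of 14 lymphoid and 3 of 10 thrombocyte genes. Genes were named only through rows, and 47.7% of all kept regions had none. A kept region without a row thus counts for no gene on any list. The best place of a gene is its best among regions with a row. The best of these regions were those of *rag2*, a recombinase gene of lymphocytes, at place 915, *gp1bb*, a platelet receptor subunit, at place 1198 and *mpeg1.1*, a macrophage gene, at place 1997. All of them lay behind the best regions of *slc4a1a*, *alas2* and *hbaa1*, and ahead of that of *gata1a*. Other erythroid genes, such as *cpox* at place 1002 and *tal1* at place 2025, lay behind *rag2*. Median places of the kept regions were 4013 (erythroid), 4037 (myeloid), 2401 (lymphoid) and 3353.5 (thrombocyte), so these best regions do not order the lists. Fewer cells of a type and less accessible DNA per cell cannot be told apart in these bulk samples.

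**Figure D4:**
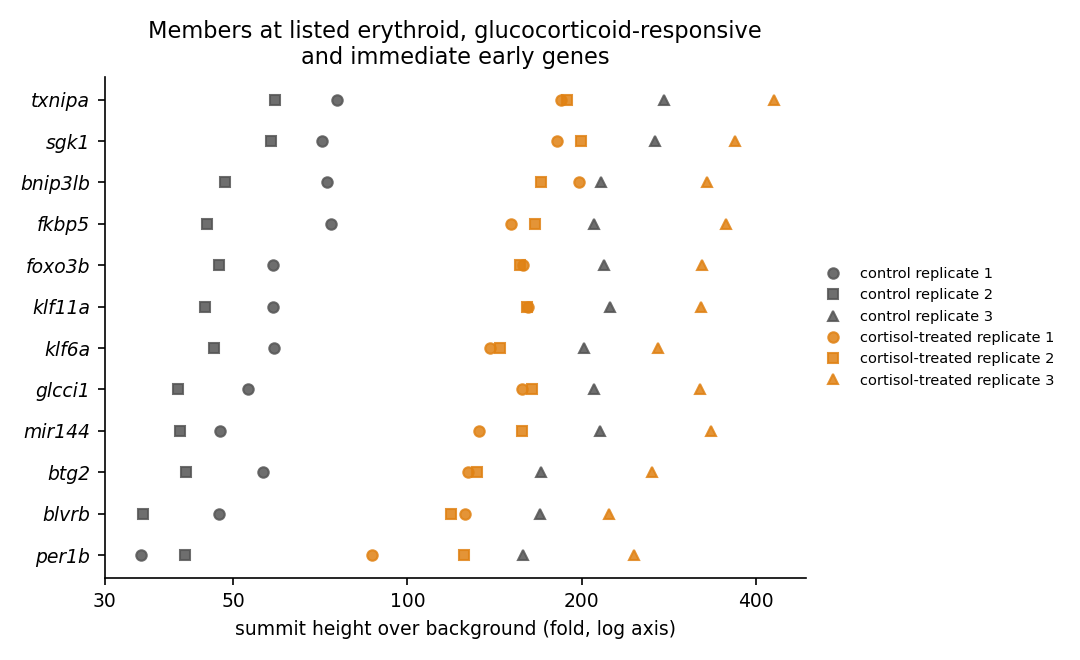
Summit height over background on a log axis in the 6 libraries for the members at genes of the erythroid, glucocorticoid-responsive and immediate early lists, in order of place. Grey symbols are control and orange symbols cortisol-treated libraries. In each row control replicates 1 and 2 are lowest, treated replicate 3 is highest, and control replicate 3 lies between treated replicate 3 and the other treated libraries.

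Immediate early genes, which are induced within minutes of a stimulus, had 2 members among 22 kept regions, the promoters of *klf6a* and of *btg2*, a growth arrest gene. The *klf6a* promoter had folds of 58.9, 46.3 and 202 in controls and 139, 144 and 271 in treated fish. The *btg2* promoter had 56.4, 41.5 and 170 in controls and 127, 132 and 265 in treated fish. The Kruppel-like factors, which bind GC-rich promoter elements, had 3 members among 40 kept regions, *klf11a*, *klf6a* and *klf11b*, and *klf11b* had 39.9, 38.8 and 198 in controls and 118, 138 and 312 in treated fish.

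Chaperone genes had 4 members among 60 kept regions (6.67%), all promoters. These were *hspa5* and *hsp90b1*, the main chaperones of the endoplasmic reticulum, *hspa8*, the constitutive cytosolic member of the family, and *hspa13*, a further family member. The *hspa5* promoter, the strongest of them at place 137, had folds of 58.1, 41.9 and 187 in controls and 143, 126 and 285 in treated fish. The promoter of *hyou1*, another chaperone of the endoplasmic reticulum that the prefix of the list does not catch, was also a member, at place 260.

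The other lists ran from no member to a share of 10%, beside 2.78% of all kept regions with a gene. Cytosolic ribosomal proteins had none among 88 kept regions, with a median place of 4479, and translation factors had 1 among 73 (1.37%), the promoter of *eif4a1b*. Solute carriers had 3 among 166 (1.81%), *slc25a25a*, *slc39a10* and *slc15a4*, and proteasome and ubiquitin genes 3 among 139 (2.16%), *psma6b*, *ube2s* and *ube2d2*. Zinc finger genes had 5 among 97 (5.15%), histone genes 1 among 15 (6.67%), the promoter of *h2afx*, and splicing genes 4 among 40 (10%), *snrnp48*, *snrnp27*, *hnrnpl2* and *hnrnpabb*. Of these, the *znf1041* and *psma6b* regions were even members far from the named gene, at 146810 and -114590 bp. The uneven regions of *znf692*, *znf410*, *snrnp27* and *snrnp48* also lay away from the gene start, at 22783, -15262, 11254 and -8447 bp. The 5 zinc finger genes were *znf1041*, *znf410*, *znf143b*, *znf367* and *znf692*.

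MicroRNA genes had 5 member regions among 92 kept ones (5.43%), with 6 named genes. Those near *mir2185-2* and *mir430a-18* were even and intergenic, and the second of these was the region already given for *znf1041*. Those of *mir7a-3*, *mir144* with *mir451a*, and *mir9-1* were uneven. The *mir7a-3* region, chr8:159557-161236, was the strongest of the uneven ones, with folds of 80.2, 71.0 and 352 in controls and 220, 230 and 509 in treated fish. The *mir9-1* region, at -21719 bp from the start of the gene, had 46.4, 33.7 and 144 in controls and 113, 112 and 205 in treated fish.

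Further members, picked out after their values were seen, belong to the circadian clock and to general promoter factors. The clock repressors *nr1d2a*, with 2 regions, and *nr1d2b* and the clock gene *per2* were members at places 235 and 270, 275 and 108. The region named for *per2* was intergenic, at -18677 bp from the start of the gene. Subunits of the CCAAT-binding factor NF-Y, *nfyc* and *nfyal*, were at places 107 and 153, and the GC-box factors *sp2* and *sp4* at places 130 and 154. In these 8 regions the treated library was above the control of the same replicate number, as in the uneven members at large and in most kept regions.

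At the border, the last members were a region of 1399 bp on an unplaced scaffold and the regions of *wbp4*, *fam60a*, *arhgdia* and *cdh15*, with mean control ranks from 387.5 to 394. The first regions left out were those of *hyal3*, *jak2a*, *aifm1*, *tmem106ba* and *snapin*, with mean control ranks from 394.5 to 395.8. The step across the border was 0.5 of a rank, and the regions on its 2 sides are alike. Leaving out control replicate 1 or 2 kept 276 and 279 of the 300, whereas leaving out control replicate 3 kept 211. The best 300 regions by control replicates 1 and 2 held 169 even regions, against 83 with all 3 controls.

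In the treated libraries, all 300 members had a peak in each of the 3 lists, against 84.9% of all kept regions. Ranked among the same 16509 regions, the members had median ranks of 157, 154.5 and 158.5 in treated replicates 1, 2 and 3, and 259, 261 and 242 of them were among the best 300 of these libraries. By mean treated rank 263 of the 300 (87.7%) were among the best 300. These were 210 of 217 uneven members and 53 of 83 even members. Without treated replicate 3 the share was 91.3%, and without both replicate 1 libraries it was 85.7%.

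The even members lost places in the youngest treated library. Their median ranks were 43, 42 and 123 in control replicates 1, 2 and 3 and 43.5, 44 and 586 in treated replicates 1, 2 and 3. The medians of the uneven members were 287, 276.5 and 158 in controls and 199, 179.5 and 144.5 in treated fish. In both groups the replicate 3 library ranked the even members lower and the uneven members higher than the other libraries did. Treated replicate 3 gave 71 of 83 even members a worse rank than both other treated libraries, and control replicate 3 did so for 59 of 83 within the controls.

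**Figure D5:**
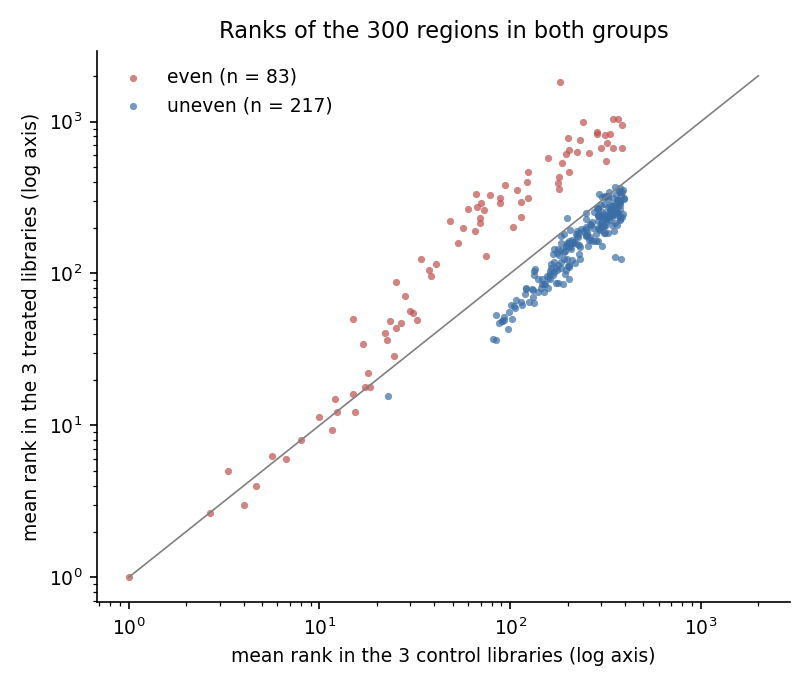
Mean rank of each member in the 3 treated libraries against its mean rank in the 3 control libraries, both on log axes, where rank 1 is strongest and the grey line marks equal ranks. Beyond the first places the 83 even members lie above the line and nearly all of the 217 uneven members below it. The point furthest above it is chr4:61790884-61791288, with a mean treated rank of 1825.

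The 10 members with the worst mean treated rank were all even, and all but that near *pimr141* lacked a row. The lowest was chr4:61790884-61791288, a region of 405 bp at place 120, with folds of 149, 132 and 134 in controls and 169, 131 and 41.3 in treated fish. It ranked 88 and 191 in treated replicates 1 and 2 and 5197 in replicate 3, so treated replicate 3 alone set its place. The region chr16:31712769-31713176 had folds of 110, 104 and 120 in controls and 170, 72.5 and 86.7 in treated fish. The region of *pimr141*, chr2:19772465-19775637, which lies in the group of 4 on chromosome 2, had 99.6, 77.1 and 111 in controls and 156, 110 and 84.7 in treated fish.

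The remaining 7 were chr8:44390597-44399378, chr21:42661894-42662679, chr4:76325029-76327500, chr25:34402895-34403516 and 3 regions on unplaced scaffolds, with mean treated ranks between 774 and 1047.5. Treated replicate 3 gave each of them its worst treated rank, from 1947 to 2466.5. Other libraries also ranked some of them low, as with chr4:76325029-76327500 at 474.5 in treated replicate 1 and 737.5 in control replicate 3. One of the 3 on unplaced scaffolds was the border region at place 296, which ranked 371.5 and 512 in treated replicates 1 and 2 and 990.5 in control replicate 3.

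Between the groups, libraries of the same replicate number were set side by side, since they come from siblings of 1 age. In uneven members the fold of the treated library over that of the control was a median of 2.62 (quartiles 2.43 and 2.86) in replicate 1, 3.36 (3.13 and 3.54) in replicate 2 and 1.43 (1.36 and 1.52) in replicate 3. It was above 1 in 217, 217 and 216 of the 217. If the replicate 1 labels were exchanged, its ratio would be the inverse, a median of 0.381 and below 1 in all 217. Over all kept regions the medians were 1.89, 2.62 and 1.35. Of the kept regions with a peak in the treated library, 14244 of 15597, 14827 of 15991 and 12547 of 14421 were above 1. Much of this ratio was thus shared by regions outside the list.

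In even members the same ratio was a median of 1.04 (quartiles 0.942 and 1.17), 1.07 (0.992 and 1.16) and 0.827 (0.751 and 0.911), and it was above 1 in 49, 58 and 8 of the 83. The size of the difference between groups depended on how libraries were scaled. With folds over background, the median of treated minus control was 1.22 on the log2 scale in uneven members, -0.06 in even members and 0.98 over all 14022 regions shared by the 6 libraries. With each library centred on the median of its shared regions, it was 0.26 in uneven members, -1.01 in even members and 0.02 over all shared regions. Without both replicate 1 libraries these medians were 1.13, -0.09 and 0.96 over background and 0.19, -1.03 and 0.02 after centring. The uneven members lay above the even members under both scalings, and the even members were close to 0 under the first scaling and below 0 under the second. With all libraries, 29 even members were above 0 and 54 below it under the first scaling, and 1 and 82 under the second.

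Counts of members whose groups did not overlap are given beside the share of all regions, and nothing is read from them because the control side of the contrast chose the members. By rank, all 3 treated libraries placed 23 members above all 3 controls, 22 of them uneven, where 909 of the 16509 kept regions (5.51%) did so. Among them were the promoters of *bnip3lb*, *btg2* and *slc39a10*, a zinc transporter gene, and, as the only even member, the region near *zgc:158420*. The reverse held for 2 members, both even, the regions near *capn3a* and *zgc:63694*, where 564 kept regions (3.42%) did so. Without both replicate 1 libraries 54 members were above (background 19%) and 6 below (background 12.7%). On the centred log2 scale 9 members were above without overlap (background 5.47%) and none below (background 5.24%). As folds over background none were above (background 2.14%) and 1 was below (background 0.2%), the region at the start of chromosome 24.

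A limma fit over all 14022 shared regions, on log2 heights centred on the median of each library, called 9 regions (0.0642%) at an adjusted p under 0.05, each higher in treated fish. No member was among them, which does not show that no member differed, and 1 member and 700 regions had an unadjusted p under 0.05. With the replicate number as a block the limma fit called 580 regions (4.14%), 59 higher (0.421%) and 521 lower (3.72%) in treated fish, and the 72 members among them were even and lower. Without both replicate 1 libraries the block gave 584 of the 14022 regions, and the 61 members among them were even and lower. With 2 libraries per group and a block, this fit rests on 1 residual degree of freedom, so its count carries little weight. With folds over background and no block the limma fit on all libraries called 11 regions (0.0784%), each higher and none a member. With the block and folds over background it called 8871 regions (63.3%), 8865 higher (63.2%) and 6 lower (0.0428%), with 217 members higher, 216 uneven and 1 even, and 2 even members lower. Without both replicate 1 libraries that fit, again with 1 residual degree of freedom, called 31 of the 14022 regions and no member. The members called under the block were even under the first scaling and mostly uneven under the second, and as the rule used the control values no reading is drawn from these counts.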

How the data were processed

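ATAC-seq of adult zebrafish blood was analysed in 6 libraries, 3 per group, grouped by the sample labels. The authors trimmed reads (Trimmomatic 0.32), shortened each to 30 bp and aligned these with Bowtie 1.0.0 against GRCz10, keeping reads with up to 3 alignments and 2 mismatches. They used MACS2 2.1.1.20160309 to call peaks at a q of 0.001. The deposited score of a peak equals its summit -log10 q multiplied by 10, as a whole number. In the annotated table, made with HOMER 4.8, the deposited distance is in bp from the nearest annotated start, and a row describes the authors' scored region and not the whole merged region. The scores of the authors' comparison were not used, and the lists of the pooled libraries served only to check the recovered backgrounds.

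The members and the gene lists were chosen with earlier results of these data known. The lists were merged, ranked and split as the report states, with ties sharing their mean rank and a region without a peak taking the last rank. The uniform background of a list and the reads at each summit were estimated by fitting a Poisson model to its whole-number scores. This recovery and the limma fit were tested on simulated data. On lists simulated under the same model the background error was at most 1.48%, and for most peaks the height error was at most 9.61%. At 3 libraries against 3 the fit found most changes of 2 on the log2 scale and none of 0.5 or 1, so a region without a call may still differ. The simulated libraries varied independently, with no effect shared by a replicate number. The fit with the block was therefore not tested under such pairing. The recovered backgrounds summed to 21.49 and 14.26 reads against 21.51 and 14.26 for the pooled control and treated lists. Read totals were not used here, so depth is known only through the background, and no counting interval is given. Regions were fitted in R 4.3.3 by limma 3.58.1, with a variance trend and Benjamini-Hochberg adjustment. With 3 libraries against 3 an exact permutation test cannot give a p below 0.1, and none was run. Nothing in the labels says that the libraries of a group came from separate crosses, so p-values measure the spread between these libraries. The other software was matplotlib 3.10.9, pandas 2.3.3, scipy 1.17.1, numpy 2.4.6 and Python 3.11.15.

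The replicate numbers were read as pairing the libraries, because the labels give both libraries of a number the same age. Log2 heights, after removal of the group means, correlated by 0.62, 0.17 and 0.61 between libraries of the same number. Between unlike numbers they correlated by -0.59 to 0.15. The 0.15 was that of control replicate 2 with treated replicate 1, so the heights say little on the pairing of replicate 2. Named genes were the 20 best members, those on the lists, the 10 worst and 5 best by treated rank, the 5 widest, the 5 on each side of the border and loci of 3 or more members. Of the 226 symbols, 199 are current, 26 older and 1 neither in the reference table. Sequences were planned but are not printed, as no table used here holds them.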

Additional observations from a re-analysis of the deposited data

How the results depend on the processing

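The rule itself was stable to merging, with 300 members kept when peaks had to overlap by 50% of the shorter interval, and 272, 233 and 263 kept when regions were ranked by the worst control rank, the median control rank or the summed score. Leaving out a control library kept 211 to 279. The share of the 300 members among the best 300 of the treated libraries was 87.7%, and 83.7% to 91.3% when a treated library was left out. With 100 members the share among the best 100 treated regions was 75%. With 1000 members the share among the best 1000 was 88.7%. The share without an annotated row was 19%, 34% with 100 members and 11.4% with 1000. The number of even members was 83, 81 or 84 with the split at 1.25 or 2, and 81 by the ratio to control replicate 2 alone. It was 169 for the best 300 without control replicate 3 and 57 for those of control replicate 3 alone. These splits, the fits without replicate 1 and the block with background scaling were chosen after seeing the data.

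The number of regions called by limma was 9. It was 580 with the replicate block, 8871 with the block and folds over background together, 25 without both libraries of replicate 1, 584 without them with the block, 31 without them with the block and folds over background, 11 with folds over background and 9 with log2 scores, and it ran from 6 to 21 when a library was left out, with 18 without control replicate 3 and 21 without treated replicate 1. The fits with the block and without replicate 1 rest on 1 residual degree of freedom. The cause of these changes in number was not tested. The block changed no other result, because the other results come from no test. Precision is limited by 3 libraries per group. Signal over background was low in control replicates 1 and 2, and its part in the precision was not tested.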
